A study of Mus musculus with 22 samples.

Results

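The genes Onecut1, Onecut2, Onecut3, Prox1, Ptf1a, Tfap2a, Tfap2b, Barhl2, Meis2 and Th were followed in a map of the histone mark H3K27me3 in embryonic mouse retina, in which the Polycomb cofactor Jarid2 was removed from retinal progenitors. All 10 are regulators or, for Th, a marker enzyme of horizontal and amacrine cells, the inhibitory interneurons of the retina. They were found as the rows of the deposited peak table whose assigned gene name was 1 of the 10, which gave 23 of the 19034 peaks and 10 of the 12370 gene names. Of these 23 peaks, 21 held enough reads to be tested, and all 10 genes were tested on the sum of their peaks.

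The mark was measured by CUT&RUN, in which a nuclease tethered to an antibody cuts out the DNA beside marked nucleosomes. The retinas came from C57BL/6 mice at embryonic day 18.5, and the dams of all animals, controls included, had received 75 µg tamoxifen per gram at E10.5. The 5 conditional knockout animals (cKO) were Jarid2 fl/fl; Rx-cre, with an inducible Cre driven from the Rx (Rax) gene of retinal progenitors. Of the 5 control animals, 3 were Jarid2 fl/+ without Cre, 1 was Jarid2 fl/fl without Cre (replicate 3), and 1 was Jarid2 fl/+; Rx-cre (replicate 1), so 1 control carried both Cre and a deletable allele. Batch 1 held cKO replicates 1 and 2 and control replicates 1 and 2, with 1 female in each group. Batch 2 held replicates 3 to 5 of both groups, all male. The 2 retinas of each mouse formed 1 sample. Each value is thus an average over all retinal cell types, in which fewer marked cells and less mark per cell cannot be told apart. An animal held 1688368 to 2864080 reads in peaks.

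H3K27me3 is laid down by Polycomb repressive complex 2 (PRC2) and marks genes held silent in a cell type, often as broad domains over the genes of developmental transcription factors. Jarid2 is an accessory subunit that helps bring PRC2 to its targets. Horizontal and amacrine cells arise from precursors that express Ptf1a. Onecut1 and Prox1 act towards horizontal cells, Tfap2a and Tfap2b act in both lineages, and Barhl2 and Meis2 are used in amacrine subtypes. In a check of the tissue, the eye genes Rax, Six3, Six6 and Crx had no peak under their names, but neither did Hoxa2, Hoxb4, Hoxc8 and Hoxd11, so a missing peak did not separate eye genes from others. The eye genes Lhx2 and Pax6 held 104 ± 5.15 and 19.5 ± 9.26 CPM in cKO and 126 ± 16.8 and 21.4 ± 1.85 CPM in control retinas, and Lhx2 was itself called lower (log2 fold change -0.26 ± 0.07, adjusted p = 0.0202 by edgeR). The heart factors Gata4 and Tbx5 carried 1726 ± 114 and 1312 ± 90.2 CPM in cKO and 1790 ± 261 and 1383 ± 194 CPM in control retinas (SD, n = 5 each). CPM, the usual depth-normalised read count, was taken over the reads in peaks and scaled with TMM factors, which adjust for differences in makeup between libraries.

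The promoters of 4 of the genes are shown as examples that overlap a peak. They range from one covered by a broad domain (Barhl2) to one that only partly overlaps a peak (Prox1). The Prox1 peak begins 0.133 kb upstream of its RefSeq body. Each run is the 250 bases before the gene's start in RefSeq (GRCm38.p6, the assembly of mm10), given 5′ to 3′ on the gene's strand with CG dinucleotides in capitals. They are Barhl2 (minus strand, chr5:106458167-106458416), Onecut1 (plus strand, chr9:74861671-74861920), Prox1 (minus strand, chr1:190170828-190171077) and Th (minus strand, chr7:142899996-142900245).
Barhl2: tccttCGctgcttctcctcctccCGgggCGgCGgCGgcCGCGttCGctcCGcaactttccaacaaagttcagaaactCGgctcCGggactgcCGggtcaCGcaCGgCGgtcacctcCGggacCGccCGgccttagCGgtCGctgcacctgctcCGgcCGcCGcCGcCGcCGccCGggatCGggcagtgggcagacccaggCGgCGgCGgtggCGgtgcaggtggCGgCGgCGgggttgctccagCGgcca
Onecut1: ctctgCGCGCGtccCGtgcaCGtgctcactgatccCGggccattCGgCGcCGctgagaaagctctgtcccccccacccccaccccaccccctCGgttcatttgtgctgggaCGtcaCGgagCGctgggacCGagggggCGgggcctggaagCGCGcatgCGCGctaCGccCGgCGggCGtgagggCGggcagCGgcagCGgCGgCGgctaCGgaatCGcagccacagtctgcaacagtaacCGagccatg
Prox1: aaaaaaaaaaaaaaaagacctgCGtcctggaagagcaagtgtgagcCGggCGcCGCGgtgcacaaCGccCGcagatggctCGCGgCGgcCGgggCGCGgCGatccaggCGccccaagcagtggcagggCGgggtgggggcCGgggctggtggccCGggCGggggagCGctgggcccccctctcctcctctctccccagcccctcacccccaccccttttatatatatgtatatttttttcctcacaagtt
Th: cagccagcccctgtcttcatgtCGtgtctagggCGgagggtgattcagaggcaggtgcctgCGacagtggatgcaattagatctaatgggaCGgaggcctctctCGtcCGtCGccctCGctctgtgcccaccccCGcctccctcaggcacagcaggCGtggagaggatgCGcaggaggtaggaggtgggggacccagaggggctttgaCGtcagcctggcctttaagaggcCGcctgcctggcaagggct

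CG dinucleotides matter here as background, since PRC2 domains in mammals tend to start at CG islands. Barhl2 had 36 CGs in its window and Onecut1 had 31, counts reached by 2.575% and 5.19% of the 32851 promoters in the table, whose median is 6. Prox1 had 20 in the window shown and Th had 13, counts reached by 17.95% and 31.54% of promoters. A second listed window of Prox1 had 11. Ptf1a, the factor that opens both fates, had 19. Tfap2a had 10 in each of its 2 listed windows, Meis2 had 7 and Tfap2b had 5, a count reached by 55.58% of promoters. Barhl2, Onecut1, Prox1, Ptf1a and Th have a window that ends where the RefSeq gene body begins. Among these, the order by CGs differed from the order by level of the mark. Ptf1a, with 19, carried the most H3K27me3 of them, while Th, with 13, had the fewest CGs and the least mark. The windows of Meis2 and Tfap2b, both windows of Tfap2a and the second of Prox1 lie inside the RefSeq gene bodies. Their CG counts belong to starts within the gene, so for these genes the count cannot be set against the level of the whole domain. The window of Meis2 and the second of Prox1 lay in no peak, 2330 and 1195 bp from the nearest peak assigned to the gene. Promoters were found for 8 of the 10 genes, Onecut2 and Onecut3 having no match in the table. The letters TATAAA, searched on both strands, were present in the windows of Prox1 (the one printed) and Meis2, and in 12.37% of all promoters.

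The regulators lay in some of the widest H3K27me3 domains of the retina. A peak of at least 20 kb was assigned to 7 of the 10 genes, whereas 3.614% of all genes with a peak had one. Tfap2a, an AP-2 factor of horizontal and amacrine cells, had the widest at 47.7 kb (chr13:40699810-40747520), and 50 of the 19034 peaks were wider. Its relative Tfap2b followed with 45.6 kb (chr1:19201050-19246630). Ptf1a had 42.5 kb (chr2:19416150-19458610) around a gene body of 1.839 kb. Onecut3 had 35.1 kb (chr10:80479100-80514200), Onecut1 had 31.0 kb (chr9:74844630-74875590), Barhl2 had 28.6 kb (chr5:106440940-106469500) and Onecut2 had 25.2 kb (chr18:64324750-64349930). The domains of Tfap2a, Tfap2b, Ptf1a and Barhl2 covered 100% of the gene body. Those of the Onecut genes ran over the start and covered 86.3% of Onecut3, 49.3% of Onecut1 and 16.9% of Onecut2. All coordinates are mm10.

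The other 3 genes had a different layout. Prox1, the homeodomain factor of horizontal cells, had 6 peaks, and all lay upstream of its body, 3 of them over the antisense gene Prox1os. They ran from a 7.39 kb peak at the start (chr1:190170960-190178350) to a 17.1 kb peak 83.1 kb away (chr1:190253840-190270950) and a small one at 115 kb. Meis2, a TALE homeodomain factor, had its main peak at its far end, a 16.1 kb stretch over the annotated 3′ end of the gene and beyond (chr2:115847490-115863590). Its body of 206 kb held only small peaks, of 2.92 kb in an intron (chr2:116008330-116011250) and of 2.20 kb at an annotated start (chr2:116060090-116062290), each covering about 1% of it. A second large peak of 12.2 kb at the 5′ end of Meis2 (chr2:116067380-116079580) was assigned to the neighbour G630016G05Rik in the deposited annotation and is not in the sums for Meis2. Th, the rate-limiting enzyme of dopamine synthesis and the marker of dopaminergic amacrine cells, had a 5.35 kb peak over its start (chr7:142897600-142902950) and a pair of small peaks 40.5 and 46.1 kb upstream of its RefSeq body. The deposited annotation gives the pair distances of 9.34 and 14.9 kb, from a start other than that of the RefSeq body.

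Density, the level per kb of peak, also set the regulators apart from each other. Tfap2b held 34.9 CPM per kb in cKO and 35.3 CPM per kb in control retinas, and 52 of all peaks were denser. The peak at the 3′ end of Meis2 held 29.1 CPM per kb in cKO and 32.9 in control retinas, with 88 peaks denser. Tfap2a held 28.9 and 29.9, Onecut2 25.4 and 27.2, Onecut1 24.5 and 26.4, and Onecut3 23.8 and 24.2 CPM per kb in cKO and control retinas. Ptf1a held 21.0 and 21.3 and Barhl2 18.3 and 20.2 CPM per kb in cKO and control retinas. The Th promoter peak was far below these at 4.92 CPM per kb in cKO and 5.99 CPM per kb in control retinas. The median was 5.07 CPM per kb in controls over all peaks and 19.04 over peaks of at least 20 kb.

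**Figure D1:**
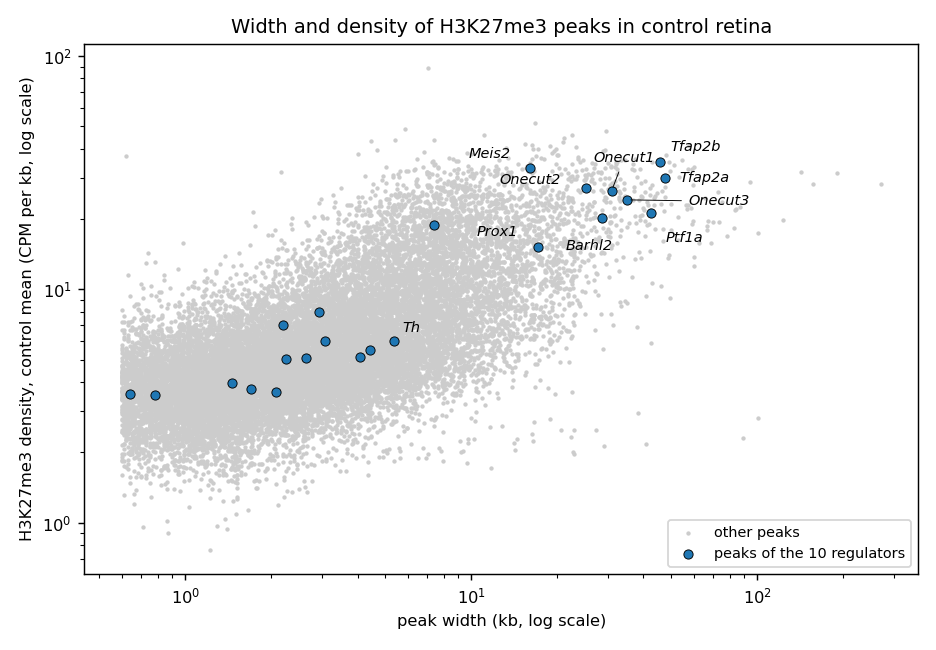
Width (kb) against density (control mean, CPM per kb) of every H3K27me3 peak, both on log axes, with the 23 peaks of the 10 regulators in blue and the widest peak of each gene named. The 7 peaks of at least 20 kb and the 16.1 kb peak of Meis2 lie in the upper right, while the peaks of Th lie among the bulk.

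In cKO retinas H3K27me3 fell at Meis2, the only 1 of the 10 genes called when peaks were summed. Over the whole table, 939 of 11324 genes were called lower in cKO (8.29%) and 168 higher (1.48%), by edgeR's quasi-likelihood test with batch as a term and Benjamini-Hochberg adjusted p under 0.05. With total counts in place of TMM factors 758 were lower and 467 higher, and with scaling to the reads in peaks of at least 20 kb 574 were lower and 376 higher. Among the regulators 1 of 10 was called lower and 0 of 10 higher, a share close to that of all genes. The 9 genes other than Meis2 had log2 fold changes (cKO over control) of -0.21 to -0.01. At an unadjusted p under 0.05 in the same test Meis2, Th and Barhl2 passed, and 23.0% of all genes did.

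All 10 regulators had a log2 fold change below 0, with a median of -0.09, whereas 46.8% of all genes were below 0 and the median of all genes was 0.02. For several genes this direction depended on the scaling: with total counts 6 of the 10 genes were below 0, beside 34.6% of all genes, and with scaling to the reads in peaks of at least 20 kb 5 were, beside 31.7%. Those scalings moved the median of all genes up by 0.06 and 0.07, to 0.07 and 0.09, and the median of the regulators was then -0.03 and -0.01. Most of the regulators also belong to a class that leaned the same way. Of the 10, 9 were among the 1133 genes with the highest control level (at least 210.8 CPM, the upper 10%), of which 74.05% were below 0, with a median of -0.04, and 16.06% were called lower. Of the 459 peaks of at least 20 kb, 68.6% were below 0 and 70 were called lower (15.3%). The 7 such peaks of the regulators had log2 fold changes of -0.14 (Barhl2) to -0.01 (Tfap2b), and edgeR called none of them.

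The level of the regulators in single animals moved with the share of reads that the broad peaks took. That share was 31.2%, 31.6%, 30.4%, 29.9% and 29.2% in cKO replicates 1 to 5 and 33.1%, 31.8%, 30.8%, 29.8% and 28.6% in control replicates 1 to 5. Peaks of the 10 regulators, 7 of which are among those broad peaks, took 0.784%, 0.790%, 0.780%, 0.775% and 0.750% in cKO and 0.814%, 0.809%, 0.795%, 0.771% and 0.731% in control retinas. Control replicate 5 was the lowest animal on both measures, and control replicate 1 the highest. The part of this variation in the differences between the groups was not tested.

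**Figure D2:**
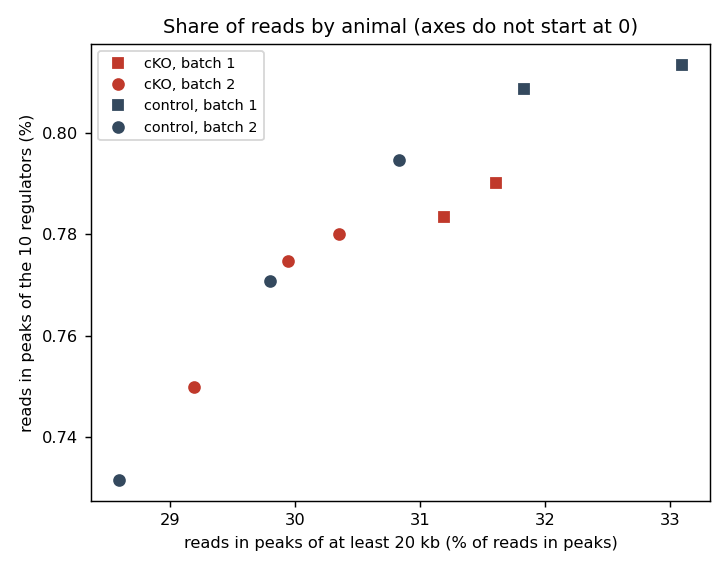
Share of an animal's reads in peaks of at least 20 kb (x axis, %) against the share in peaks of the 10 regulators (y axis, %), with cKO animals in red and control animals in dark blue, squares for batch 1 and circles for batch 2. The share in the regulators' peaks ran from 0.731% to 0.814%, and both extremes are controls.

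Meis2 was the regulator with the smallest p. Its 5 peaks together held 518, 522, 518, 512 and 470 CPM in cKO replicates 1 to 5 and 587, 659, 611, 603 and 515 CPM in control replicates 1 to 5. Each of the 5 cKO animals was under the mean of its batch's controls. In batch 1 the groups did not overlap, and in batch 2 control replicate 5 lay between the cKO animals. This is a log2 fold change of -0.23 ± 0.06 (SE; adjusted p = 0.0222 by edgeR), with -0.26 ± 0.10 in batch 1 and -0.21 ± 0.08 in batch 2. The call ended, at adjusted p of 0.0548 to 0.0808, when cKO replicate 1, 2 or 5 or control replicate 2, 3 or 4 was left out, and it also ended without the batch term (0.101), in batch 1 alone (0.253), in batch 2 alone (0.108), with the first technical duplicates only (0.0577) and with promoter peaks only (0.0919). It remained below 0 in all 26 alternative fits.

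Within Meis2 the fold change farthest from 0 was at the small intron peak, 30.8 kb from an annotated start. That peak held 12.7, 13.4, 14.8, 15.5 and 14.0 CPM in cKO replicates 1 to 5 and 16.8, 26.8, 23.0, 24.1 and 25.6 CPM in control replicates 1 to 5. Every cKO animal lay below every control animal, in both batches. Its log2 fold change of -0.71 ± 0.13 had an adjusted p of 9.64e-04 by edgeR and corresponds to 14.1 ± 1.09 CPM in cKO and 23.3 ± 3.90 CPM in control retinas (SD, n = 5 each). It was the same size in both batches, with -0.71 ± 0.23 in batch 1 (adjusted p = 0.137) and -0.71 ± 0.17 in batch 2 (adjusted p = 0.0125). The peak was called in 23 of 24 alternative fits, all but that of batch 1 alone (adjusted p = 0.376). It is a small part of the sum of Meis2, most of which is the 3′ peak described next.

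The other peaks of Meis2 were also lower in the mean. The 16.1 kb peak at the 3′ end held 491, 494, 476, 461 and 418 CPM in cKO and 550, 575, 550, 538 and 440 CPM in control retinas. Control replicate 5 was again below 4 of the 5 cKO animals. The peak was at -0.18 ± 0.07 (log2 fold change, edgeR adjusted p = 0.113). It was called in 3 of 24 alternative fits, among them that without control replicate 5 (-0.25, adjusted p = 0.00276). The peak at the annotated start held 7.93, 7.46, 11.6, 14.1 and 10.7 CPM in cKO and 9.88, 21.8, 14.0, 16.7 and 15.3 CPM in control retinas, a log2 fold change of -0.54 ± 0.19 (adjusted p = 0.0897). A 4.07 kb peak beyond the 3′ end (chr2:115812090-115816160) had -0.38 ± 0.15 (adjusted p = 0.121). The smallest peak, of 0.641 kb, was below the limit for testing. At the 5′ end, the 12.2 kb peak assigned to G630016G05Rik held 368 CPM in cKO and 410 CPM in control retinas on average, a log2 fold change of -0.16 ± 0.06 (adjusted p = 0.151).

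Whether the peaks of a gene moved unlike each other was tested with edgeR's diffSpliceDGE, which compares the fold changes of the peaks of a gene. Of 3121 genes with several tested peaks, 91 were called (2.92%). None of the 4 regulators with several tested peaks was among them. The adjusted p from edgeR was 0.0893 for Meis2, 0.632 for Prox1, 0.644 for Barhl2 and 0.879 for Th. Meis2 was called without control replicate 1 (adjusted p = 0.0167), and leaving out any other single animal gave 0.0649 to 0.2715. The ratio of the intron peak to the 3′ peak of Meis2 was lower in every cKO animal than in any control of its batch. The mean difference of the log2 ratio was -0.51 in batch 1 and -0.55 in batch 2. That ratio was chosen after its values were seen and was not tested on its own. The intron peak by itself already separated the groups, and how often other pairs of peaks do so was not counted.

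The genes whose summed level followed Meis2 most closely across the 10 animals, with batch means removed, were Cnr1, A830031A19Rik, G630016G05Rik, Gm13658 and Lmo3, with Pearson's r of 0.993, 0.983, 0.982, 0.980 and 0.979. These were the highest of 5666 genes searched, and all points share library depth and scaling. The difference between the genotypes was left in these values, so the search favours genes that are lower in cKO, as Meis2 is. G630016G05Rik is the neighbour whose peak overlaps the 5′ end of Meis2.

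Th was the regulator with the least H3K27me3, at the 66.8th percentile in controls, whereas the other 9 lay at percentiles of 96.9 to 99.8. These percentiles are over all gene names with a peak, tested or not. Its 3 peaks together held 35.1, 40.4, 49.8, 52.0 and 45.4 CPM in cKO replicates 1 to 5 and 47.2, 46.6, 55.2, 52.4 and 56.3 CPM in control replicates 1 to 5. It was the only regulator in which every cKO animal lay below every control of its batch, which held for 8.16% of all genes. In the opposite direction, with every cKO animal above, there was no regulator among the 4.12% of all genes. The log2 fold change of Th was -0.21 ± 0.08 (edgeR adjusted p = 0.143). In all 26 alternative fits it was negative and it was called in none, with adjusted p of 0.112 to 0.509.

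The widest gap at Th was at its promoter peak in batch 1. That peak held 14.8 and 18.4 CPM in cKO replicates 1 and 2 and 24.7 and 29.3 CPM in control replicates 1 and 2, a log2 fold change of -0.69 ± 0.19 in batch 1 (edgeR adjusted p = 0.0853). In batch 2 it held 30.7, 32.3 and 35.5 CPM in cKO replicates 3 to 5 and 36.3, 33.1 and 36.8 CPM in control replicates 3 to 5, which overlapped, with -0.11 ± 0.12 (adjusted p = 0.764). The batch by genotype term of this peak reached an unadjusted p of 0.0307 in edgeR and an adjusted p of 1. Both batches in 1 fit gave -0.27 ± 0.12 for this peak (adjusted p = 0.164). The pair of small upstream peaks had -0.16 ± 0.24 and -0.05 ± 0.17.

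Barhl2, a homeodomain factor of amacrine subtypes, had 28.6 kb of H3K27me3 over and around its short body. The domain held 542, 552, 538, 518 and 465 CPM in cKO replicates 1 to 5 and 546, 655, 636, 560 and 490 CPM in control replicates 1 to 5. In batch 1 cKO replicate 2 lay between the controls, and in batch 2 control replicate 5 lay among the cKO animals. With a log2 fold change of -0.14 ± 0.07 (edgeR adjusted p = 0.280) it was not called. It was called in 1 of 24 alternative fits, that without control replicate 5 (-0.21, adjusted p = 0.0459). Over the 24 fits the adjusted p from edgeR reached 0.637. A second peak 22.2 kb away differed by less than the spread between animals, with 24.7 ± 1.07 CPM in cKO and 24.3 ± 3.23 CPM in control retinas (SD, n = 5 each).

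On both sides of Barhl2 a domain was called lower, and the Barhl2 domain itself was lower in the mean without being called. Around the 10 regulators, 23 peaks of other genes lay within 100 kb of a gene body, of which 20 were tested, 2 were called lower and 0 higher. Over all peaks 7.38% were called lower and 1.46% higher, which for 20 tested peaks is close to these counts. Both lower peaks flanked Barhl2. A 30.6 kb peak assigned to Gm28050 (chr5:106554100-106584740) held 361, 404, 524, 471 and 471 CPM in cKO and 462, 591, 696, 647 and 572 CPM in control retinas, with no overlap within a batch. Its log2 fold change was -0.41 ± 0.08 (edgeR adjusted p = 8.17e-04). On the other side, an 11.4 kb peak assigned to 4930458A03Rik (chr5:106341840-106353270) held 140, 146, 130, 135 and 138 CPM in cKO and 161, 206, 217, 203 and 186 CPM in control retinas, again with no overlap. Its log2 fold change was -0.50 ± 0.08 (adjusted p = 1.45e-04). The ratio of each to the Barhl2 domain was lower in every cKO animal than in any control of its batch. For Gm28050 the mean difference of that log2 ratio was -0.32 in batch 1 and -0.24 in batch 2, and for 4930458A03Rik it was -0.22 and -0.44. These pairs were chosen after their values were seen, and the differences of the ratios were not tested. How often other pairs of peaks separate the groups was not counted. Nearer to Barhl2, the 14.8 kb peak of Gm42916 was at -0.20 ± 0.06 (log2, adjusted p = 0.0572). The small peaks of Gm26872 and 4930432H08Rik were at -0.29 ± 0.12 (edgeR adjusted p = 0.154) and -0.55 ± 0.24 (adjusted p = 0.186). All 5 tested neighbours of Barhl2 were thus below 0, as was the Barhl2 domain.

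**Figure D3:**
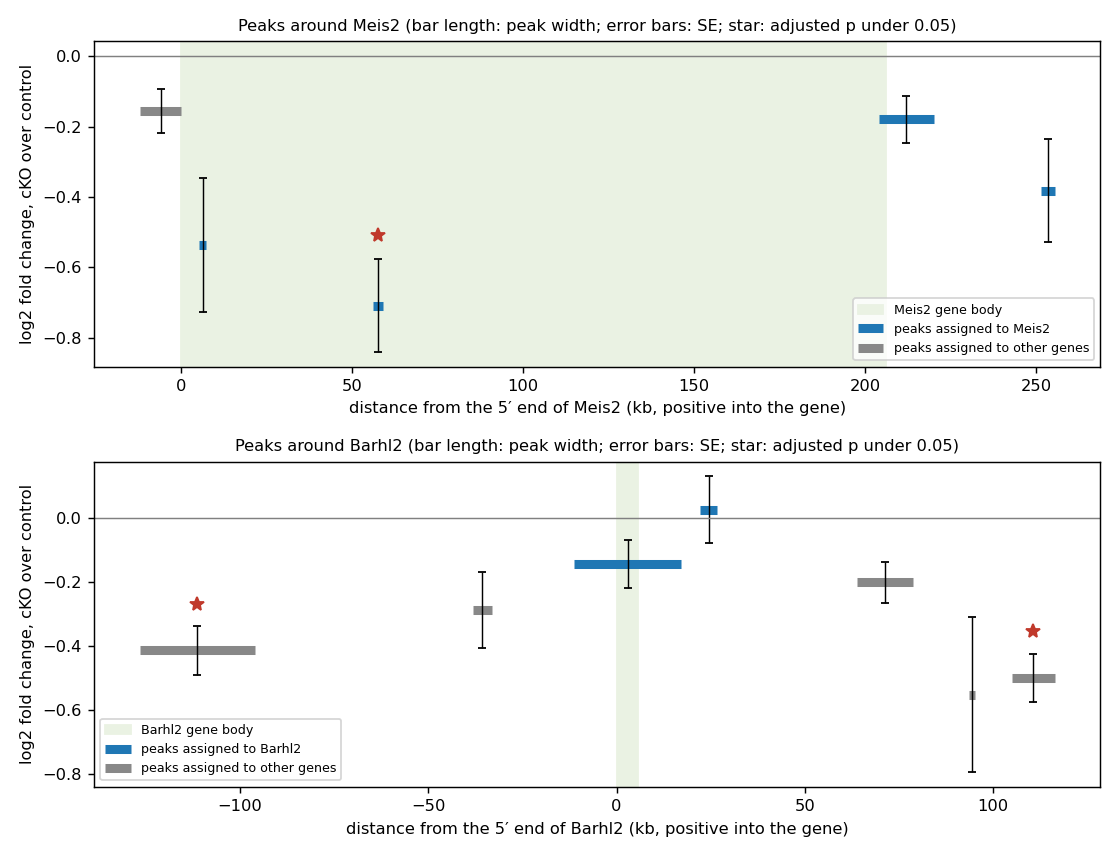
Log2 fold change (cKO over control, y axis) of each tested peak against its distance from the 5′ end of Meis2 (top) and Barhl2 (bottom), in kb and positive in the direction of the gene. Bars span the peak, blue for peaks assigned to the gene and grey for peaks assigned to neighbours, error bars are SE and stars mark adjusted p under 0.05. In Meis2 the star is at the intron peak (-0.71), and around Barhl2 the stars are at the flanking peaks (-0.41 and -0.50), not at the Barhl2 domain (-0.14).

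Onecut1 and Onecut2, cut-homeodomain factors that act together in horizontal cell formation, were lower in the mean without being called. Onecut1 held 732, 732, 805, 770 and 743 CPM in cKO replicates 1 to 5 and 850, 833, 876, 811 and 741 CPM in control replicates 1 to 5. Batch 1 showed no overlap, and in batch 2 control replicate 5 was the lowest of the 6 animals. The log2 fold change was -0.12 ± 0.06 (edgeR adjusted p = 0.230), with -0.20 ± 0.09 in batch 1 and -0.07 ± 0.07 in batch 2. Onecut2 held 599 to 661 CPM in cKO and 575 to 735 CPM in control retinas, with -0.11 ± 0.06 (adjusted p = 0.323). Its groups also overlapped only in batch 2. Each gene was called in 1 of 26 alternative fits, that without control replicate 5. There they were at -0.16 (adjusted p = 0.0302) for Onecut1 and -0.17 (adjusted p = 0.026) for Onecut2. Over the 26 fits the adjusted p from edgeR reached 0.727 for Onecut1 and 0.738 for Onecut2. Onecut3, the third member of the family, held 778 to 882 CPM in cKO and 727 to 967 CPM in control retinas. Its groups, too, overlapped only in batch 2. Its log2 fold change was -0.03 ± 0.07 (adjusted p = 0.839), with -0.17 ± 0.10 in batch 1 and 0.06 ± 0.08 in batch 2.

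Prox1 summed over its peaks held 462, 462, 410, 443 and 426 CPM in cKO replicates 1 to 5 and 487, 517, 426, 406 and 389 CPM in control replicates 1 to 5. In batch 1 both cKO animals were below both controls, while in batch 2 the groups overlapped. The log2 fold change was -0.01 ± 0.06 (edgeR adjusted p = 0.954). The 7.39 kb peak at the Prox1 start was the one large peak of a regulator with a value above 0. It held 176, 185, 133, 134 and 132 CPM in cKO and 182, 178, 123, 114 and 103 CPM in control retinas, so the groups overlapped in batch 1 and all cKO animals were above all controls in batch 2. Its log2 fold change was 0.14 ± 0.07 (adjusted p = 0.254), and it was called higher with total counts (0.18, adjusted p = 0.046) and with scaling to the reads in broad peaks (0.20, adjusted p = 0.026). The 17.1 kb peak upstream held 259, 248, 235, 257 and 243 CPM in cKO and 274, 291, 255, 247 and 231 CPM in control retinas, with -0.06 ± 0.06 (adjusted p = 0.650). The level at the start relative to that peak was higher in every cKO animal than in any control of its batch. On average it was higher by 0.16 (log2) in batch 1 and 0.23 in batch 2. This pair was chosen after its values were seen and was not tested on its own, and how often other pairs separate was not counted. The other 4 peaks of Prox1 each averaged 18.4 CPM or less and none was called.

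Ptf1a and its targets Tfap2a and Tfap2b carried the most mark, and none was called. Tfap2b held 1625, 1606, 1567, 1585 and 1545 CPM in cKO replicates 1 to 5 and 1770, 1708, 1609, 1580 and 1417 CPM in control replicates 1 to 5. Over both batches the cKO animals lay close together, inside the range of the controls. The log2 fold change was -0.03 ± 0.06 (edgeR adjusted p = 0.850). Tfap2a held 1256 to 1458 CPM in cKO and 1206 to 1603 CPM in control retinas, with -0.06 ± 0.06 (adjusted p = 0.632). Ptf1a held 832 to 948 CPM in cKO and 794 to 971 CPM in control retinas, with -0.04 ± 0.06 (adjusted p = 0.761). For Tfap2b, Tfap2a and Ptf1a both cKO animals of batch 1 lay below both controls, while the groups overlapped in batch 2. How often this holds over all genes was not counted. A p above the threshold does not show that these levels were equal.

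**Figure D4:**
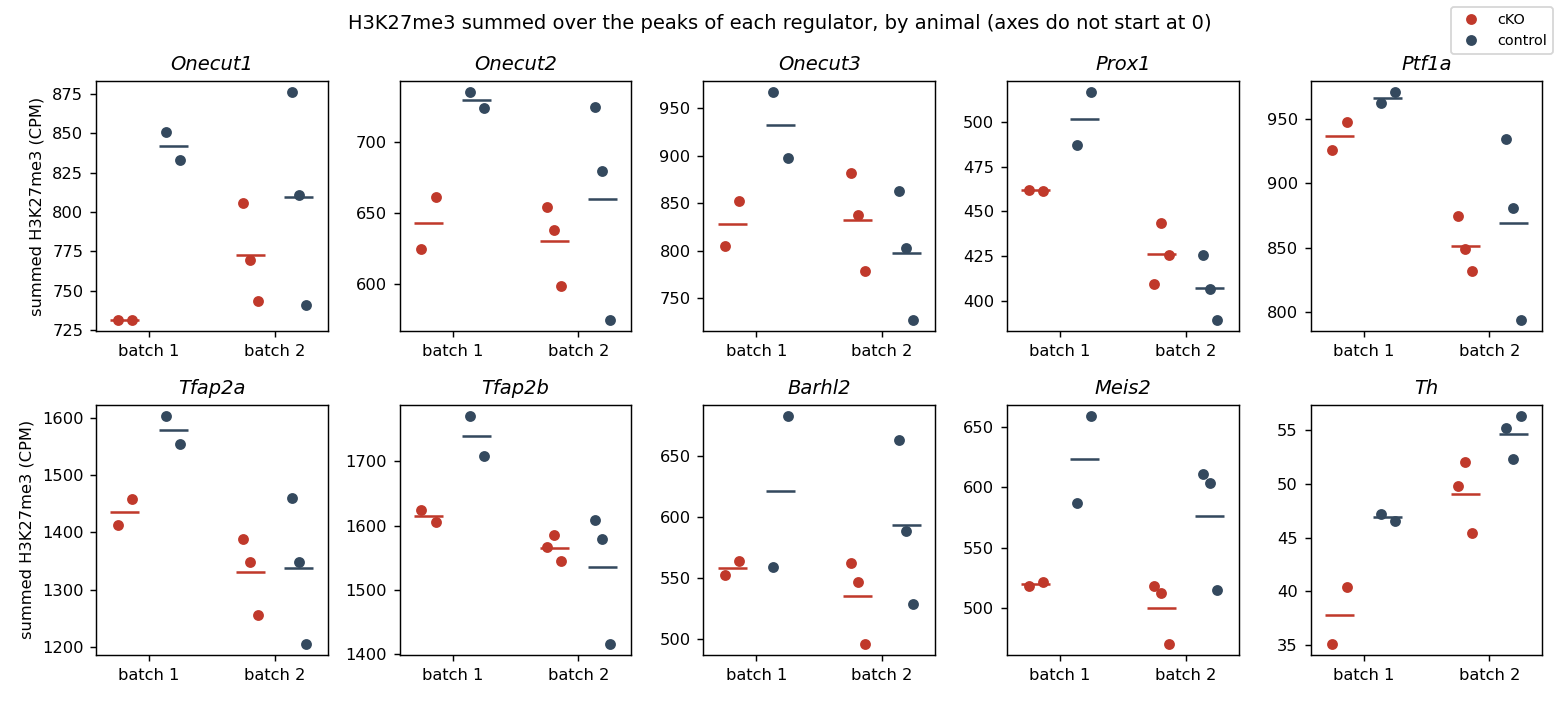
H3K27me3 summed over the peaks of each regulator (CPM, y axes that do not start at 0), with a point per animal, cKO in red left of control in dark blue within each batch, and a line at the mean. For Th no cKO point reaches a control point of its batch, and for Meis2 only control replicate 5 (515 CPM) reaches the cKO range.

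In both batches taken singly, no regulator was called on its sum. The fit with a genotype term per batch called 3.77% of all genes in batch 1 and 5.32% in batch 2. In batch 1 all 10 regulators had a log2 fold change below 0, from -0.31 (Th) to -0.05 (Ptf1a). In batch 2, 7 were below 0, and Onecut3 (0.06), Prox1 (0.06) and Tfap2b (0.03) were above it. The difference between batches was not called for any of the 10 (adjusted p of 0.999 or more), and over all genes it was called for 2 (0.0177%), with 504 at an unadjusted p under 0.05 in the same edgeR test. On single peaks, 1 of the 21 tested peaks of the regulators was called lower, the intron peak of Meis2, and 0 were called higher, beside 7.38% and 1.46% of all peaks.

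**Figure D5:**
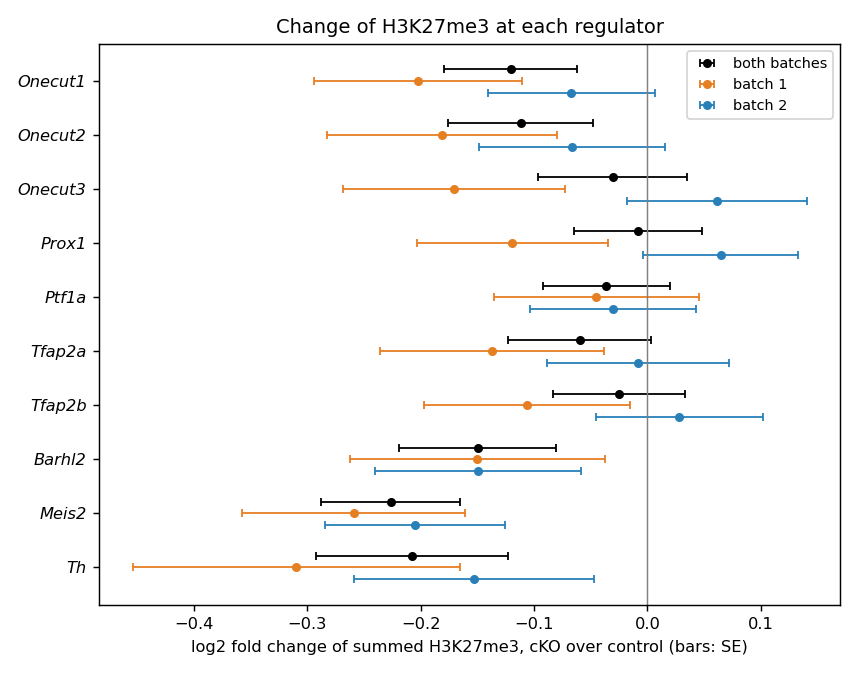
Log2 fold change of summed H3K27me3 at each regulator (cKO over control, x axis) over both batches in black, in batch 1 in orange and in batch 2 in blue, with bars of 1 SE. Meis2 and Th lie farthest below 0 over both batches (-0.23 and -0.21), and Onecut3, Prox1 and Tfap2b are above 0 in batch 2.

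Genes around these regulators in the same cell types were counted from lists. Over all genes, edgeR called 8.29% lower and 1.48% higher, and 23.0% had an unadjusted p under 0.05. Lists of 6 to 8 tested genes are too small for such counts to separate them from all genes. In edgeR, of 6 tested of 7 listed relatives of the regulators (such as Tfap2d, -0.10 ± 0.05, and Barhl1, -0.12 ± 0.07), 0 were called, and 0 had an unadjusted p under 0.05. Of 6 tested of 10 listed factors that give progenitors the competence for these fates (such as Neurod1, -0.16 ± 0.06, adjusted p = 0.0906, and Prdm13, which acts with Ptf1a, -0.06 ± 0.05), 0 were called and 1, Neurod1, had an unadjusted p under 0.05, with a median of -0.09. Pax6 is in that list and differed between batches in its values: it held 7.75 and 11.2 CPM in cKO and 21.4 and 18.3 CPM in control retinas of batch 1, and 26.7, 24.9 and 26.96 CPM in cKO and 22.4, 22.7 and 22.4 CPM in control retinas of batch 2. Its log2 fold change was -1.07 ± 0.22 in batch 1 (edgeR adjusted p = 0.0102) and 0.22 ± 0.14 in batch 2 (adjusted p = 0.525), and the batch by genotype term had an unadjusted p of 1.25e-04 and an adjusted p of 0.209. Of 8 tested of 11 listed horizontal cell genes (such as the gap junction gene Gja10, 0.18 ± 0.08, adjusted p = 0.168, and Sall3, -0.10 ± 0.06), 0 were called and 1, Gja10, had an unadjusted p under 0.05. The median of the horizontal cell list was -0.07.

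Among 24 tested of 26 listed factors of amacrine subtypes 4 were called lower and 0 higher, beside 8.29% and 1.48% of all genes. Of the 24, 23 had a log2 fold change below 0, beside 46.8% of all genes, and the median was -0.10. The 4 called were Lmo4, Tshz2, Lmo3 and Bhlhe22. Most of the 24 belong to the 1133 genes with the highest control level (at least 210.8 CPM). In that class 16.06% were called lower and 74.05% were below 0, with a median of -0.04. Lmo3 and Bhlhe22 are in that class, and Lmo4 and Tshz2 are not. Whether the list differs from that class was not tested. The LIM-only cofactor Lmo4 held 48.6 ± 16.9 CPM in cKO and 87.1 ± 27.1 CPM in control retinas (SD, n = 5 each), which gave -0.84 ± 0.09 on the log2 scale (edgeR adjusted p = 1.99e-05). Tshz2, a zinc finger factor, held 164 ± 22.8 CPM in cKO and 204 ± 24.3 CPM in control retinas, with -0.32 ± 0.06 (adjusted p = 8.92e-04). Lmo3, another LIM-only cofactor, was at -0.29 ± 0.06 (adjusted p = 0.0027), and Bhlhe22, a bHLH factor, at -0.21 ± 0.06 (adjusted p = 0.0417). Of 21 tested of 25 listed transmitter and subtype markers 1 was called, Elavl4, an RNA-binding protein of neurons (-0.41 ± 0.12, adjusted p = 0.0276), and the neuropeptide gene Tac1 was next (-0.19 ± 0.06, adjusted p = 0.0702). Of 13 tested of 14 listed dopaminergic genes 1 was called lower and 0 higher. It was Slc18a2, the vesicular monoamine transporter that loads dopamine, with 35.1 ± 5.18 CPM in cKO and 44.7 ± 5.78 CPM in control retinas, a log2 fold change of -0.35 ± 0.09 (adjusted p = 0.0128). Next came Lmx1b, a LIM-homeodomain factor of midbrain dopaminergic neurons, with -0.15 ± 0.07 (adjusted p = 0.188).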

How the data were processed

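H3K27me3 was measured by CUT&RUN in retinas of 5 cKO and 5 control mice. The authors deposited counts of reads per peak for 1 set of 19034 peaks and 16 H3K27me3 libraries, with a gene name and a distance to a start per peak. Columns deposited beside the counts hold, per the file headers, a log2 fold change with its error, a mean signal, a test score and p-values, which were not used because no contrast is named. The tools named in the submitters' processing notes are MACS2, SAMtools, Novoalign (4.02.02) and DESeq2 (1.38.1), with mm10 as the build. For the calling of peaks and the treatment of duplicate reads, no setting was stated in the labels or headers. The labels' protocol gives the controls as Jarid2 fl/fl, and the sample labels were used instead. IgG libraries (6) were not used here.

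Technical duplicates of batch 2 agreed within sampling noise, with a chi-square of 0.88 to 0.997 per degree of freedom where animals of a group and batch gave 1.05 to 2.53, and were summed, so each animal counts once. Deposited counts, per peak and summed over the peaks of a gene name, were filtered with edgeR's filterByExpr on the batch and genotype design, leaving 16307 peaks and 11324 genes, scaled with TMM factors computed for each table, and tested with edgeR 4.0.16 (glmQLFit, glmQLFTest, R 4.3.3) with batch as an additive term. Adjusted p-values (Benjamini-Hochberg) run over all tested features, and features under 0.05 were called. An SE is the log2 fold change divided by the square root of F. Values per batch come from a fit with a genotype term in each batch, and differences between batches from the interaction term. Log2 CPM used a prior count of 2. DESeq2 1.42.0 and limma 3.58.1 (voom) were alternatives. The steps were tested on simulated data.

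The genes, lists and most settings were chosen with earlier results of these data known. The text names all 10 genes, all their peaks, up to 2 genes with the smallest p in each other list, called genes of a list, and the 5 genes most like the regulator with the smallest p. Outside that rule it names Pax6, for the difference between batches in its values, further genes of the tissue check, and neighbours of the regulators. A first run filtered low counts by genotype group, which was replaced by the design filter after its calls had been seen, and is kept as an alternative.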

Additional observations from a re-analysis of the deposited data

Results flagged for a closer look

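Among the sums of the 10 regulators and their tested peaks, 5 results had every cKO animal on one side of the control mean in batch 1 and on the other side in batch 2. How often this holds over all genes or peaks was not counted. The sum of Tfap2b and its domain share nearly all their reads and are not separate results. The batch by genotype term is given as the log2 fold change in batch 2 minus that in batch 1. For the sum of Prox1 it was 0.1838, for the sum of Tfap2b 0.1347 and for the 45.6 kb Tfap2b domain alone 0.1133, with cKO below control in batch 1 and above it in batch 2. The Prox1 peak at chr1:190285940-190288180 had 0.6334, in the same sense. For the small peak beside Barhl2 (chr5:106431500-106435920) it was -0.1578, in the opposite sense. No such term passed edgeR's test (adjusted p of 0.999 or more).

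In 3 of 62 groups of 5 animals, 1 animal stood far from the other 4, and chance gives about 1 in 20. The sums of cKO replicate 5 were the lowest of its group at Barhl2 (496.5 CPM, the other cKO animals 547 to 564) and at Meis2 (470.5 CPM, the others 512 to 522). At the 3′ peak of Meis2 control replicate 5 was the lowest of its group (439.8 CPM, the others 538 to 575). These animals also had the lowest shares of reads in peaks of at least 20 kb of their groups, 29.2% for cKO replicate 5 and 28.6% for control replicate 5. The part of that share in these values was not tested.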

How the results depend on the processing

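The sum of Meis2 kept its direction in all 26 alternatives and its call in 15. The counts that follow compare with 1442 peaks, 1107 genes, 1 peak of a regulator and 1 regulator called in the fit reported above. DESeq2 called 863 peaks. Without the batch term 359 peaks, 271 genes and 0 regulators were called, and at an adjusted p under 0.01 there were 839 peaks and 624 genes. In batch 1 alone, with 2 animals a group, edgeR called 0 peaks, 0 genes, 0 peaks of the regulators and 0 regulators, with 1827 peaks and 1508 genes at an unadjusted p under 0.05. In batch 2 alone, with the first duplicates only, and with promoter peaks only (460 genes) 0 regulators were called. Peaks of the regulators called numbered 2 with total counts, 2 with the replicate block, 2 with sex as a further term, 3 with the second duplicates only and 2 with scaling to the reads in peaks of at least 20 kb. Leaving out 1 animal gave 1088 to 1615 peaks, 837 to 1249 genes, 1 to 5 peaks of the regulators (5 without control replicate 5), 0 to 3 regulators (3 without control replicate 5), 45 to 134 genes whose peaks differed (91 in the reported fit) and 0 to 8 genes whose effect differed between batches (2 in the reported fit, 4 with total counts). The cause of these changes was not tested, beyond the fewer animals or peaks that some of them use.

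Values near 0 changed sign, and none of these was called. With total counts Onecut3 was at 0.0283, Prox1 at 0.0505, Ptf1a at 0.0229, Tfap2b at 0.0337 and the Prox1 peak at chr1:190184810-190187890 at 0.0261. With scaling to peaks of at least 20 kb these were at 0.0451, 0.0671, 0.0397, 0.0505 and 0.0411, with Tfap2a at 0.0166, the 17.1 kb Prox1 peak at 0.00289 and the farther small Th peak at 0.0125. In batch 1 alone the pair of small Th peaks was at 0.216 and 0.0801. In batch 2 alone Onecut3 was at 0.0534, Prox1 at 0.0559, Tfap2b at 0.0201, the Prox1 peaks at chr1:190184810-190187890 and chr1:190285940-190288180 at 0.0705 and 0.0367 and the small Barhl2 peak at -0.0344. The farther Th peak was at 0.05 with the first duplicates, and the Prox1 peak at chr1:190184810-190187890 at 0.0861 with the second. Prox1 was at 0.117 with promoter peaks only and at 0.124 with peaks over RefSeq gene bodies. Leaving out 1 animal gave -0.0762 to 0.0116 for Onecut3, -0.0342 to 0.0191 for Prox1, -0.131 to 0.0533 for the Prox1 peak at chr1:190184810-190187890, -0.304 to 0.0167 and -0.128 to 0.0834 for the small Th peaks and -0.0197 to 0.0611 for the small Barhl2 peak. Single peaks were compared only for genes with several tested peaks, a limit set after the values were seen.

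No label says that replicate numbers pair the animals. The correlation of same-numbered animals' deviations ran from -0.444 to 0.0942. In batch 1, with 2 animals a group, the deviations mirror each other, so the correlation cannot decide whether numbers pair animals there. With the replicate block, 1423 peaks and 1082 genes were called, the sum of Meis2 was at -0.22 (adjusted p = 0.00953), and its 3′ peak was called (adjusted p = 0.0325). Scaling to broad peaks, RefSeq gene bodies and the low-count filter by genotype group (1472 peaks, 1121 genes, 1 regulator) were chosen after seeing the data. Gene bodies were extended on both sides, because the planned extension upstream needs strands that the gene table used here lacks.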
